A study of Mus musculus with 16 samples.

Results

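Misalignment was compared with control at ZT12 by asking which BMAL1 binding sites in mouse liver were called in a misaligned library and not in the control library of the same sex, or the reverse. The sites were the 7043 consensus intervals of the deposited table, of which 5652 held a peak in at least 1 of the 4 BMAL1 libraries taken at ZT12. An interval was gained in a pair when it was called in the misaligned library alone, lost when it was called in the control library alone, and kept when it was called in both. Jointly in the male and the female pair, 66 intervals were gained and 0 were lost. The 66 gained intervals and their nearest genes are the subject below.

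The series held 16 samples of liver from C57bl6 mice aged 8 to 16 weeks, 8 precipitated with an antibody to BMAL1 and 8 with IgG, which are not used here. All mice lived in 12 h light and 12 h dark and ate a diet with 42% of calories from fat from the first week of the paradigm, so control and misaligned animals shared the diet. The 4 groups at ZT12 were control and misaligned males and control and misaligned females, each as 1 library made from the pooled livers of 3 to 4 mice, and the same 4 groups existed at ZT0. The labels name the misalignment protocol without describing its schedule. With 1 library per group no difference could be set against replicate error, and treatment cannot be told apart from library. The livers were whole tissue, so peaks come from all its cell types together.

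BMAL1 pairs with CLOCK and binds the E-box, the 6-base motif CACGTG, from where the pair activates genes of the circadian clock. Among its targets are the Per and Cry repressors, which shut the pair down, and the genes of REV-ERB and of the PAR-bZIP factors Dbp, Tef and Hlf, which pass the rhythm on. In liver its binding is known to be rhythmic, highest in the light phase, and many of its sites lie at promoters of metabolic genes. ZT0 is lights on and ZT12 is lights off.

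Sequence is shown first for the gained promoters that held the motif. Of the 66 intervals, 37 overlapped the RefSeq promoter window of at least 1 protein-coding gene (250 bases before to 50 after the start, GRCm38.p6, the build of the peak files), and 10 of these 37 had CACGTG in a window (27%, exact 95% interval 13.8 to 44.1). The motif is its own reverse complement, so 1 search covered both strands. For each of the 10, the motif in capitals is printed with up to 30 bases on either side, from RefSeq, on the strand of the gene and not past its start site.

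Phf7, chr14:31251316-31251381, minus strand: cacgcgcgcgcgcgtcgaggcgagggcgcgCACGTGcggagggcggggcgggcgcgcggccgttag
Gmfb, chr14:46822243-46822279, minus strand: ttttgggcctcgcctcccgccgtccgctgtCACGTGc
Slc35a5, chr16:45158728-45158793, minus strand: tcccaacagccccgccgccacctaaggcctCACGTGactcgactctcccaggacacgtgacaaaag
Dazap1, chr10:80264764-80264804, plus strand: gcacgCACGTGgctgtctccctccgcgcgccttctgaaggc
Usp4, chr9:108347794-108347830, plus strand: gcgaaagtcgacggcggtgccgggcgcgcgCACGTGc
Rab3gap2, chr1:185203972-185204037, plus strand: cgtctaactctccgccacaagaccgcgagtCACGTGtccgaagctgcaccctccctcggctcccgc
Macrod1, chr19:7056646-7056711, plus strand: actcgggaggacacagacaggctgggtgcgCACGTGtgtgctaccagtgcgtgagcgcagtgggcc
Pgrmc2, chr3:41083048-41083113, minus strand: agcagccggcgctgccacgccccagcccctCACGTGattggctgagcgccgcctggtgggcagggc
Ntpcr, chr8:125734018-125734083, plus strand: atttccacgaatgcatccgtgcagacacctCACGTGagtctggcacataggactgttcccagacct
Prr3, chr17:35979433-35979498, minus strand: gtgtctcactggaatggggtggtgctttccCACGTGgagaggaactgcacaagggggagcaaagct

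At 6 of the 10 intervals the nearest CACGTG lay within 50 bp of the summit of the male misaligned peak, and at 6 within 50 bp of the female misaligned summit. This closeness was not particular to the gained set. In male misaligned it held at 4 of 6 such intervals gained in males and lost in females. It held at 7 of 11 called in all 4 ZT12 libraries and at 4 of 4 kept in males and gained in females. The male summit was 3 bp from the motif at Dazap1 and at Usp4, 4 bp at Phf7, 19 bp at Gmfb, 22 bp at Rab3gap2 and 29 bp at Slc35a5, whose printed window holds a further copy in lower case. It was 76 bp away at Macrod1, 269 bp at Ntpcr, 292 bp at Prr3 and 318 bp at Pgrmc2. Phf7 shares this promoter with Bap1, a deubiquitinase gene and tumour suppressor read from the other strand, and Slc35a5 shares its own with Atg3, an enzyme of autophagy. For comparison, the same kind of window is printed for Cry1, a clock repressor, and Bnip3, a mitophagy receptor, whose intervals were called in all 4 ZT12 libraries, and for Crebrf, whose interval was gained in males and lost in females.

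Cry1, chr10:85185079-85185144, minus strand: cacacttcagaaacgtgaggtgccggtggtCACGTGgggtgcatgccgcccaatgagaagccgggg
Bnip3, chr7:138909579-138909644, minus strand: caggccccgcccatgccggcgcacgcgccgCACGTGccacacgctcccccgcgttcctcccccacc
Crebrf, chr17:26715606-26715649, plus strand: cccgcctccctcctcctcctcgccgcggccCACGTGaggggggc

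The other gained promoters had no CACGTG in the window, which says only that these letters are not in that stretch. For 3 of the gained intervals discussed most below, the 250 bases before the RefSeq start are printed in lower case, with the 21 bases around the male misaligned summit in capitals. The summit was 111 bp before the start at Phf1, 12 bp at Hlf and 107 bp at Nampt, and the female misaligned summit was 128, 20 and 144 bp before it.

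Phf1, chr17:26932877-26933126, plus strand: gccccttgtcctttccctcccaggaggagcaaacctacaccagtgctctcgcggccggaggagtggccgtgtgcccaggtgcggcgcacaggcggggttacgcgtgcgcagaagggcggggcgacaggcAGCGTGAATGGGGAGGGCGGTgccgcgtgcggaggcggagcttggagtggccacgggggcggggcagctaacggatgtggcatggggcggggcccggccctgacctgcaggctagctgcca
Hlf, chr11:90390918-90391167, minus strand: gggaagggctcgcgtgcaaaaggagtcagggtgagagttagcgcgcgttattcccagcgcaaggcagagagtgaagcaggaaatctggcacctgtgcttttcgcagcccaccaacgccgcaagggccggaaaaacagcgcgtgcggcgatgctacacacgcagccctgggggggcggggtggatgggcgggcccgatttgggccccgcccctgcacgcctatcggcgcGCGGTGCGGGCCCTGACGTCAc
Nampt, chr12:32820085-32820334, plus strand: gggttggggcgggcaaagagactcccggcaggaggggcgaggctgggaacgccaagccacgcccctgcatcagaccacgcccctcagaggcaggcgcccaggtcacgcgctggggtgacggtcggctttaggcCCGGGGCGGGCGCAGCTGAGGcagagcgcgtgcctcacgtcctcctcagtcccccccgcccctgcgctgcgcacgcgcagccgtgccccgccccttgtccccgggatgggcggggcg

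The 3 stretches were rich in G and C, at 72% for Phf1, 67.2% for Hlf and 75.6% for Nampt. Over the 49 promoter windows under gained intervals the median G and C content was 68.7%, against 56.3% over the 21263 windows of all protein-coding genes. CACGTG stood in 26.5% of the 49 windows (exact 95% interval 14.9 to 41.1) and in 7.84% of all windows. The related motif CACGTT, searched on both strands, stood in 4 of the 49 windows, including those of Abhd14a and Rer1, and in 4.68% of all windows. The share with CACGTG was 24% over the 1427 windows under intervals gained in males and uncalled in females, 30.8% over the 26 windows under intervals gained in males and lost in females (interval 14.3 to 51.8), and 37.9% over the 29 windows under intervals called in all 4 libraries (interval 20.7 to 57.7). The 24% lay within the interval of each of the other 3 classes, and windows of the same gene can overlap. Base composition was not matched between them.

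The libraries differed far more in list length than in the gained set. Peaks numbered 290 in male control and 5542 in male misaligned, 19.1 times as many, and 141 in female control and 221 in female misaligned, 1.57 times as many. The exact two-sided sign-flip permutation test over the 2 pairs gave p = 0.5, the value it must take when both of 2 pairs move the same way, so it tests nothing here. The male misaligned list stands apart from the other 3. Read depth is unknown, and the lowest local background among a list's peaks, a rough guide to how deep a library is, was 4.39 and 4.25 fragments in the male control and misaligned libraries and 5.67 and 6.14 in the female ones. At a local background of 10 fragments, the weakest peak each list admitted by p needed 27 summit fragments in male control, 24 in male misaligned, and 27 in both female lists.

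Over the 5652 intervals, the male pair gained 5317 (94.1%), lost 63 (1.11%) and kept 223 (3.95%). The female pair gained 147 (2.60%), lost 68 (1.20%) and kept 70 (1.24%). Gained in both were 66 intervals (1.17%), which is 1.24% of the male gains (interval 0.961 to 1.58) and 44.9% of the female gains (interval 36.7 to 53.3). Lost in both were 0 (0%). Where peaks counted as shared only if at least 50% of both overlapped, 8 counted as lost in both. Each of these still overlapped a misaligned peak in part, in the male or the female pair. By the main calls, 42 (0.743%) went opposite ways. These calls chose the members, so the counts describe and test nothing. Of the 68 intervals lost in females, 37 were gained in males (54.4%, interval 41.9 to 66.5), and this interval overlaps that of the 44.9%. The male misaligned library called 74.8% of the female gains and 76.5% of the female losses. Gain in males was thus counted among female losses at a share no lower than among female gains.

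**Figure D1:**
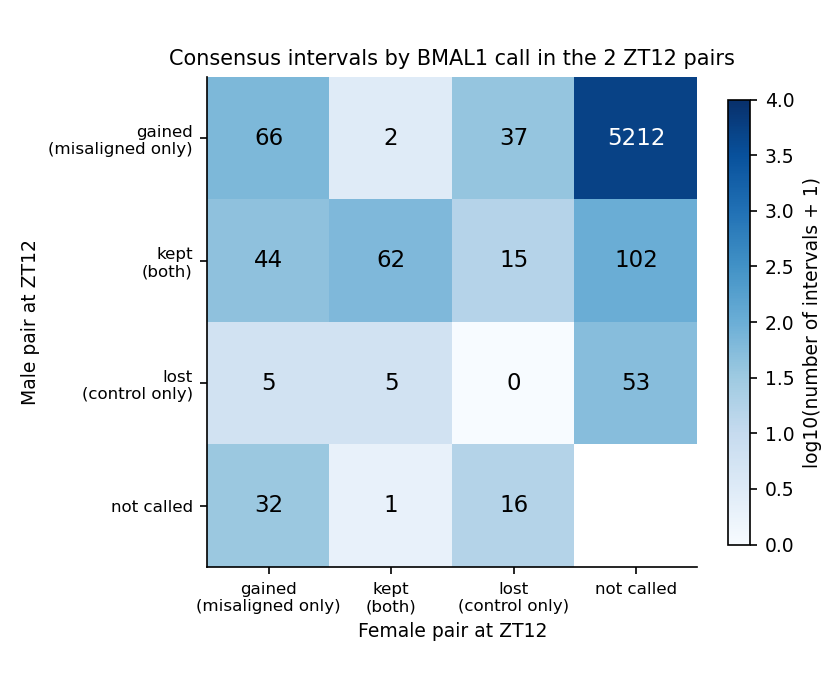
Consensus intervals by call in the male pair (rows) and the female pair (columns) at ZT12, with the number of intervals in each cell and the shade on a log10 scale. The top left cell holds the 66 intervals gained in both pairs, the cell for lost in both is 0, and 5212 intervals were gained in males and called in neither female library; the empty cell is the 1391 intervals called at ZT0 alone.

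When the lists of each pair were shortened to equal length by −log10 q, so that 290 male and 141 female peaks faced each other, 16 intervals were gained in both pairs and 4 were lost in both. All 16 were among the 66. They were nearest to Foxo3, Klf16, Sec24a, Nampt, Gm37238, Gmfb, Gm23430, Slc35a5, Phf1, Rhod, Atl3, Trim45, Gm23412, 2610002J02Rik, Sox5os1 and Ntpcr. Foxo3 encodes a forkhead factor restrained by insulin signalling, Sec24a a coat protein of vesicles leaving the endoplasmic reticulum, and Nampt an enzyme that recycles nicotinamide into NAD. The 4 lost at equal length were nearest to G6pc, the glucose-6-phosphatase of the liver, and to Gm37975, Pisd-ps1 and Gm16505, and the last 2 lay in regions of high local background (at least 5 times the lowest of the list). The G6pc interval was called in all 4 libraries at full length.

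The gained peaks were strong in the male misaligned list and of middle to low rank in the female one. In male misaligned, −log10 q over the 66 was 2.08 at the lowest, 24.8 at the median and 81.6 at the highest. Of the 66, 53 stood in the top 20% of that list. So did 30 of the 37 intervals gained in males and lost in females. The same held for 38 of the 44 kept in males and gained in females, and 57 of the 62 called in all 4 libraries. In female misaligned, −log10 q over the 66 was 1.43, 7.23 and 24.8. There 0 of the 66 stood in the top 20%, with the best at rank 45 of 221. Summit fragments were 19 to 112 in male misaligned (median 61) over a local background of 4.44 to 17, and 26 to 72 in female misaligned (median 41.5) over 6.64 to 15.2. None of the 66 lay in high background, and the summits of the male and female peaks were a median of 34 bp apart, with 55 of 66 within 100 bp (83.3%, interval 72.1 to 91.4). All q and fold values are the authors' peak caller's and depend on the list, and the lower q of the misaligned peaks was used across lists only to choose which intervals to name.

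The control libraries give no value where they have no call, so the size of a gain is bounded only by the threshold. In male misaligned, the summit held a median of 2.38 times the fragments that the male control list required for a call at the same local background, with 46 of 66 at 2 times or more and 2 under that requirement (lowest 0.962). In female misaligned this multiple was 1.43 at the median and 2.4 at the highest, with 37 of 66 under 1.5 times. The female gains thus lay nearer to the threshold than the male gains. Fragments were not scaled for read depth, which is unknown, so these multiples bound a gain only where both libraries of a pair are equally deep. Just inside the threshold, the Pcsk4 interval had −log10 q of 1.43 in female misaligned, where the lowest of the list was 1.31, and the Rer1 interval had 2.08 in male misaligned, where the lowest was 1.31. Uncalled intervals have no value in the lists, so no value just outside can be given.

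**Figure D2:**
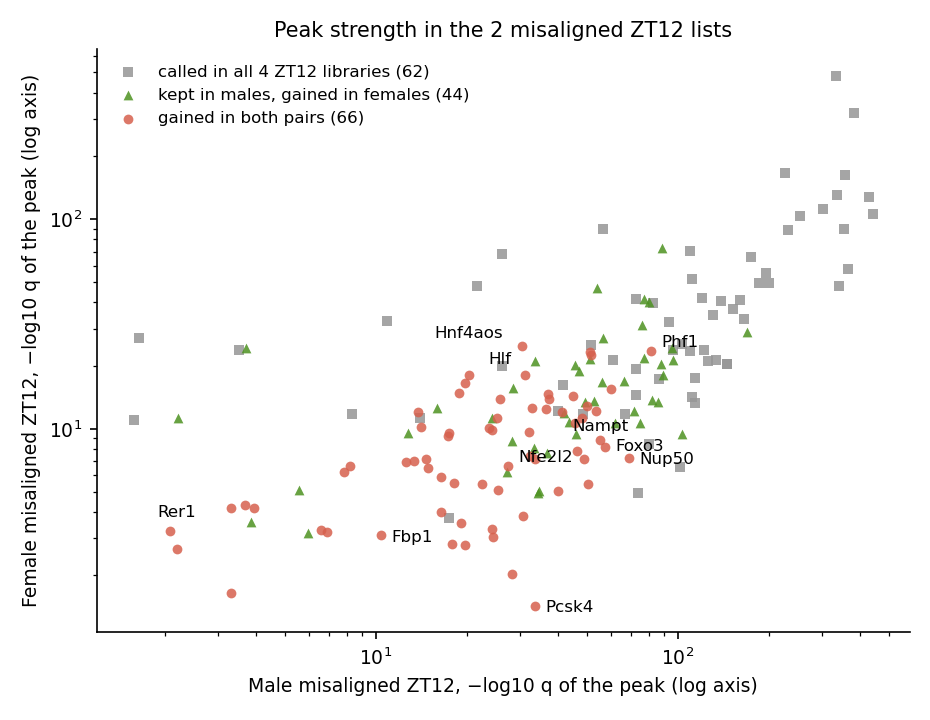
Each point is an interval, placed by the −log10 q of its peak in the male misaligned (x) and female misaligned (y) ZT12 list, on log axes. The 66 gained intervals (circles) reach 81.6 in males and 24.8 in females, below the strongest of the 62 intervals called in all 4 libraries (squares), and 44 intervals kept in males and gained in females (triangles) are mixed among them.

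The leading gained interval by the weaker of its 2 peaks was in an intron beside Hnf4aos (chr2:163540539-163541040, 931 bp from its TSS). Hnf4aos is the antisense transcript of Hnf4a, a nuclear receptor that keeps hepatocyte identity. The peak had 82 summit fragments over a background of 14.2 in male misaligned (−log10 q 30.5) and 60 over 8.67 in female misaligned (24.8), with no call in either ZT12 control. Phf1, an accessory subunit of the Polycomb complex that methylates histone H3, came next at its promoter (chr17:26932728-26933591). Its summit held 112 fragments over 7.8 in male misaligned (81.6) and 71 over 13.1 in female misaligned (23.5). The interval listed under 2610002J02Rik, at -26686 bp from its TSS, had 78 fragments in males and 56 in females. Atl3, an atlastin that fuses endoplasmic reticulum membranes, had 90 and 72.

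Genes of the core clock stood among the kept intervals more than among the gained ones. Of the 22 core clock genes of the list, 11 had an interval within 10 kb called in all 4 ZT12 libraries: Bhlhe40, Bhlhe41, Ciart, Cry1, Cry2, Dbp, Nr1d1, Nr1d2, Per1, Per2 and Tef. Such intervals were 62 of the 5652 (1.10%), which is a share of intervals and not of genes. Of the 22, 1 had an interval gained in both pairs, Hlf. The Hlf interval (chr11:90390631-90391186) is at -2935 bp by the authors' distance and at the RefSeq start of the gene. It had 77 summit fragments over 12 in male misaligned (−log10 q 31.3) and 59 over 11.4 in female misaligned (18.1). Per1 had, beside its kept interval, another that was kept in males and gained in females. Hlf was also nearest to an interval called in all 4 libraries, more than 10 kb away, so the gained interval was not the only one listed under the gene. The gained interval was itself called in male control at ZT0 (−log10 q 19.6).

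In the clock output list, 1 of 17 genes had an interval gained in both pairs within 10 kb, and it was Nampt. Its promoter interval (chr12:32819706-32820491, -237 bp) had 85 summit fragments over 10.8 in male misaligned (−log10 q 41.3) and 46 over 9.71 in female misaligned (12). Klf15 and Tspan4 of the same list were called in all 4 libraries. Klf11, a Krüppel-like factor, Por, the electron donor of microsomal cytochromes P450, and Usp2, a clock-controlled deubiquitinase, were called in both male libraries and gained in females. At Klf11 the summit held 60 fragments in male control, 107 in male misaligned and 80 in female misaligned, with no call in female control.

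In the list of stress and acute phase genes, 1 of 21 was gained in both, Nfe2l2, which encodes the oxidative stress regulator NRF2. Its interval (chr2:75703443-75704203, 666 bp) had 68 fragments over 10.6 in male misaligned (27.4) and 39 over 10.5 in female misaligned (6.63). For all lists, nearest gene and distance were the authors'. On that basis, liver identity factors (11 genes), nuclear receptors (15) and lipid and cholesterol synthesis (22) had 0 genes with an interval gained in both within 10 kb. Glucose and insulin (18) and fatty acid oxidation (12) had 0 as well. This does not mean that no such gene had a gained site at its start. By RefSeq, gained intervals lay at the starts of Foxo3, Lss (-10283 bp by the authors' distance) and Insig2 (listed under Gm37174). The leading gained interval was listed under Hnf4aos, the antisense transcript of Hnf4a, so it was not counted for Hnf4a. Its distance to the start of Hnf4a is not given. Over the 8 lists, 3 of 138 genes had an interval gained in both within 10 kb by the authors' distance. Gained intervals were 1.17% of the 5652, a share of intervals and not of genes. The share over all genes was not computed, so the lists cannot be called richer or poorer in gains. At any distance 2 genes of the glucose and insulin list were added. Foxo3 was 1, by an interval (chr10:42276537-42278589) at -19197 bp by the authors' distance and at its RefSeq start, with 90 fragments over 7.8 in male misaligned (57.3) and 42 over 10.7 in female misaligned (8.17). The other was Fbp1, a gluconeogenic phosphatase, by an intergenic interval at -35551 bp with 44 and 26 fragments. Of 10 hepatocyte marker genes, 4 had a peak within 10 kb in male misaligned and 0 in the other 3 ZT12 libraries. Male misaligned called 98% of the 5652 intervals, and the other 3 called 5.06% (male control), 2.44% (female control) and 3.84% (female misaligned). The marker lists of lymphocytes, cholangiocytes, endothelium, stellate cells, and Kupffer or other myeloid cells had 0 genes with a peak within 10 kb in any of the 4. Peaks do not measure expression, so these lists show only which loci carried a call.

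**Figure D3:**
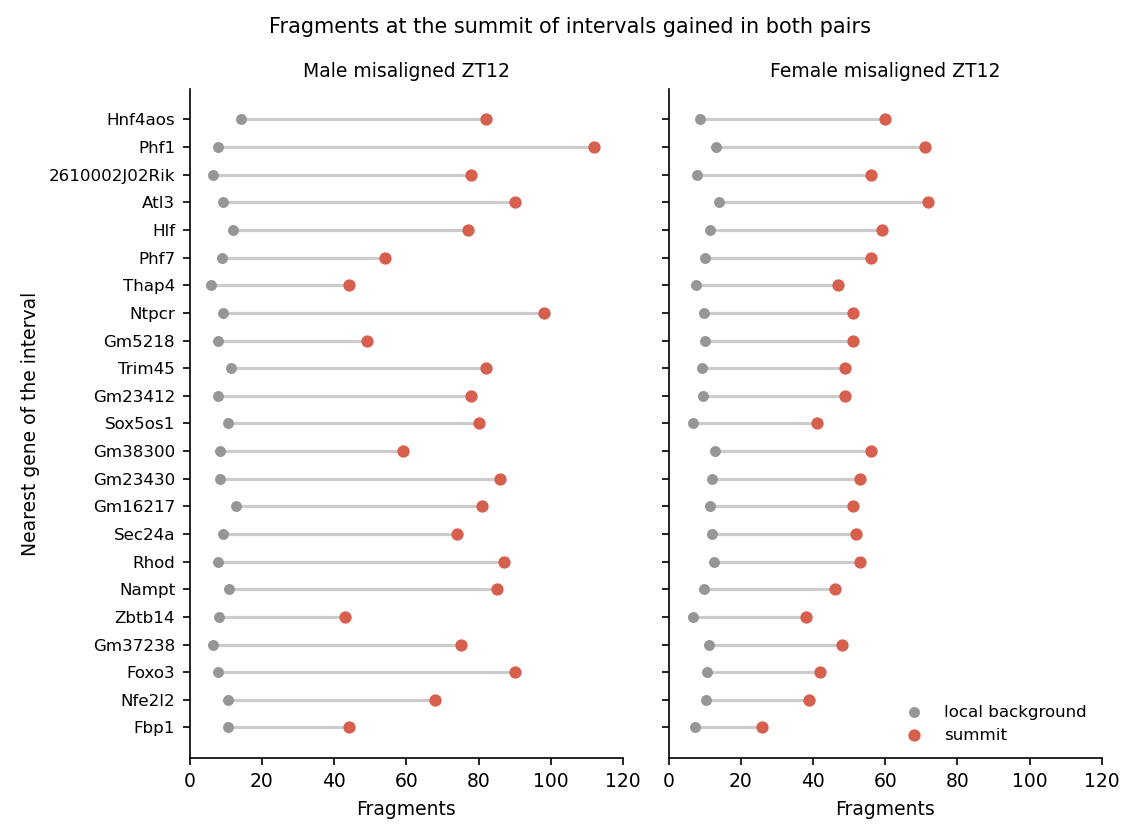
Fragments at the summit (orange) and in the local background (grey) of 23 gained intervals, by nearest gene, in male misaligned (left) and female misaligned (right) ZT12. The rows are the 20 with the highest lower −log10 q and the 3 further members of the gene lists, and the summits run from 43 to 112 fragments in males and from 26 to 72 in females.

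The remaining members of the leading 20 were spread over promoters, introns and intergenic sites. Thap4, which shares its promoter with the autophagy protease gene Atg4b, had 44 summit fragments in male misaligned and 47 in female misaligned, and Phf7 had 54 and 56. Ntpcr had 98 and 51, and Trim45, a ubiquitin ligase gene, had 82 and 49. The interval listed under Gm23412 lay at the start of Ttc39b and had 78 and 49. Zbtb14, a zinc finger factor, had 43 and 38, Sec24a 74 and 52, and Rhod, a small GTPase of endosomes, 87 and 53. The intervals listed under Gm5218, Sox5os1, Gm38300, Gm23430, Gm16217 and Gm37238 had 49 to 86 fragments in males and 41 to 56 in females.

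The other 43 gained intervals had −log10 q from 1.43 to 11.2 in female misaligned (median 5.52) and from 2.08 to 68.8 in male misaligned (median 19.1). At coding starts of their own nearest gene were Macrod1, Qk (an RNA-binding splicing factor), Pgrmc2 (a haem-binding membrane protein), Xndc1, Gmfb, Slc35a5, Hoga1 (an enzyme of hydroxyproline breakdown), Nup50 (a nuclear pore protein), Syncrip, Smad3 (a transducer of TGF-beta signals), Dazap1, Smarca4 (the BRG1 ATPase of SWI/SNF remodellers), Lss (lanosterol synthase of the cholesterol pathway), Pgp, Abhd14a, Prr3, Tsga10, Acad12 and Rer1. Intervals listed under Gm16343, Snora36b, Gpx1, Gm26537, Scaf1, Gm37174 and Gm11491 lay at the RefSeq starts of Ifrd2, Rab3gap2, Usp4, 1190005I06Rik, Rras, Insig2 and Trim37. Insig2 holds the SREBP cholesterol sensor complex in the endoplasmic reticulum, and Gpx1 is a glutathione peroxidase. Nearest genes of the rest included Gm25794, Klf16, Gm13065, Gm15684, Gm13983, Epb4.1l4b, Gm9358, Slc13a2, Rbbp6, Lhpp, Id2, Gm12249, Gm24175, Mbnl1, Col27a1 and Pcsk4. At Nup50 the male summit held 103 fragments and the female one 41, and at Smarca4 they held 55 and 45.

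The share of gained intervals at promoters was above that of the intervals gained in males and called in neither female library. By the authors' annotation 48 of 66 were at a promoter (72.7%, interval 60.4 to 83), against 32% of the 5212 and 33.1% of all 5652. Of the rest, 9 were intergenic, 8 intronic and 1 at a transcription end. By the distances in the deposited table, the share no farther than 1 kb from a TSS was 43.9% (interval 31.7 to 56.7) against 27.4% and 27.9%. Intervals called in all 4 libraries were at a promoter in 61.3% (interval 48.1 to 73.4) and within 1 kb in 43.5%, and those gained in males and lost in females in 56.8% (39.5 to 72.9) and 40.5%. Both 95% intervals overlap that of the gained class. Of the 44 intervals kept in males and gained in females, 43.2% were at a promoter (28.3 to 59), which does not overlap it, and 43.2% were within 1 kb. The median width was 622 bp for the gained intervals, 399 bp for those gained in males and called in neither female library, 719 bp for those gained in males and lost in females, 762 bp for those kept in males and gained in females, and 797 bp for those called in all 4 libraries. They lay on 18 chromosomes, with 66 different nearest genes, of which 47 are protein-coding by the authors' annotation and 19 stand more than 10 kb away.

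**Figure D4:**
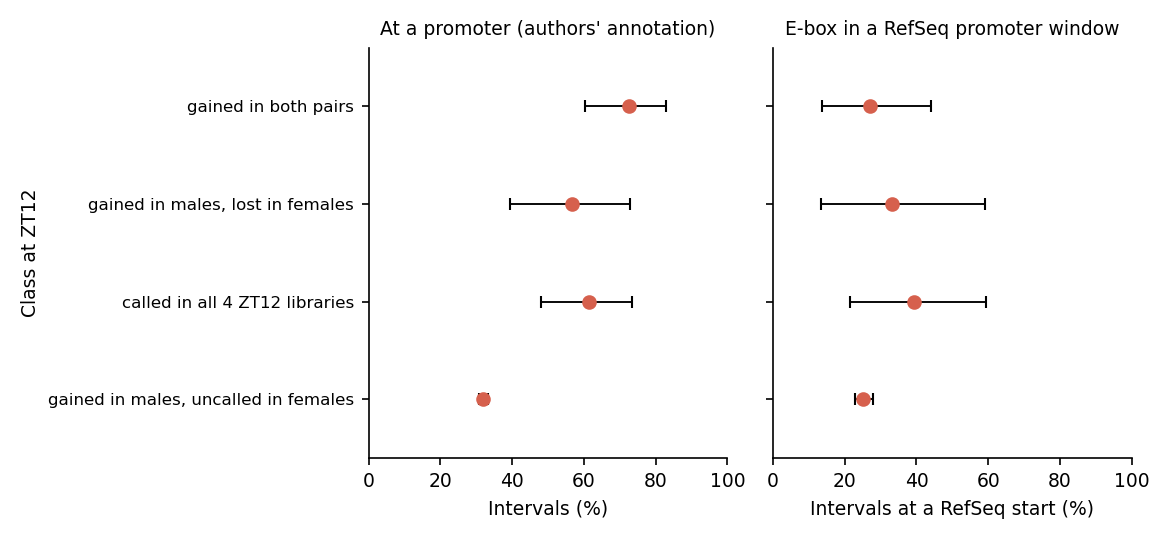
Share of intervals at a promoter by the authors' annotation (left) and, of those at a RefSeq coding start, share with the E-box in a promoter window (right), for 4 ZT12 classes, with exact 95% intervals for counting error. The 66 gained intervals stand at 72.7% and 27%, the intervals gained in males and uncalled in females at 32% and 25.2%.

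The ZT0 libraries were not used to choose the members and were read as a further measurement of the same treatment. Most gained intervals were also called in misaligned livers at ZT0, and few were called in the female control. Of the 66, 48 were called in male misaligned ZT0 (72.7%, interval 60.4 to 83) and 45 in female misaligned ZT0 (68.2%, interval 55.6 to 79.1). In the controls, 26 were called in males (39.4%, interval 27.6 to 52.2) and 3 in females (4.55%, interval 0.947 to 12.7). Over all 5652 intervals, the same libraries called 17.6% and 15.3% (misaligned males and females) and 5.98% and 2.02% (control males and females). The other classes described here that were called in male misaligned ZT12 and in a female ZT12 library had high shares too. Misaligned males and females at ZT0 called 98.4% and 96.8% of the intervals called in all 4 ZT12 libraries. They called 97.7% and 84.1% of those kept in males and gained in females, so frequent ZT0 calls were not particular to the 66. Each called 6.25% of the 32 intervals gained in females and called in neither male library at ZT12. Called in no ZT0 library were 11 (16.7%, against 74.9% of all 5652), among them Trim45, Slc13a2, Abhd14a, Prr3, Mbnl1 and Acad12.

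By pair, 42 of the 66 were gained at ZT0 in females (63.6%, interval 50.9 to 75.1), where 13.8% of all 5652 intervals were gained. In males 24 were gained (36.4%, interval 24.9 to 49.1), where 13.0% of all were gained, while another 24 were called in both male ZT0 libraries and 2 were lost. In females 3 were kept and 0 lost. Gained in both ZT0 pairs were 15 (22.7%, interval 13.3 to 34.7) against 4.46% of all. The ZT0 misaligned lists were longer than their controls too, with 1864 against 373 peaks in males and 1330 against 225 in females, and the part of list length in these shares was not tested. The intervals gained in males and lost in females at ZT12 had like shares, 75.7% gained at ZT0 in females (interval 58.8 to 88.2), 35.1% in males and 29.7% in both. Those kept in males and gained in females at ZT12 had 63.6% (interval 47.8 to 77.6), 38.6% and 20.5%. Those called in all 4 ZT12 libraries had lower shares, 38.7%, 14.5% and 9.68%. Among intervals gained in males at ZT12, those gained in females and those lost in females thus had ZT0 shares with overlapping intervals. Of the 32 gained in females and called in neither male library at ZT12, 6.25% were gained at ZT0 in females (interval 0.766 to 20.8).

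The 15 intervals were called in all 4 misaligned and in 0 of the 4 control BMAL1 libraries, and 0 intervals of the 7043 had the reverse pattern. The control lists held only 141 to 373 peaks, and male misaligned ZT12 called 98% of the 5652 intervals. The reverse pattern thus had little room to occur, and the contrast of 15 with 0 tests nothing. The 15 are listed next. Their nearest genes included 2610002J02Rik, Thap4, Ntpcr, Sox5os1, Nampt, Zbtb14, Gm25794, Macrod1, Syncrip, Nfe2l2, Rbbp6, Lhpp, Lss and Rer1. Nampt had −log10 q of 12.4 in male misaligned and 24.8 in female misaligned at ZT0, beside 41.3 and 12 at ZT12. Nfe2l2 had 9.74 and 13.3 at ZT0, and Lss 16.5 and 8.73.

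Other members were called in male control livers at ZT0 but not at ZT12. Foxo3 had −log10 q of 37.6 at ZT0 in male control, 33.9 in male misaligned and 42.4 in female misaligned, with no call in female control. Hlf had 19.6, 33.8 and 31.2 in the same 3 libraries, and Phf1 had 21.5, 25.7 and 32.9. This pattern, in all ZT0 libraries but female control, was the most frequent and held for 21 of the 66. Over the 62 intervals called in all 4 ZT12 libraries, 85.5% were called in male control ZT0 and 58.1% in female control ZT0. Only 3.17% and 0.921% of the 5212 intervals gained in males and uncalled in females were called there.

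Opposite calls in the sexes were found at 42 intervals, 37 gained in males and lost in females and 5 the other way, and the difference between the pairs was not tested. In the 37, −log10 q was 3.58 to 96 in male misaligned (median 36.7) and 1.77 to 17.8 in female control (median 5.88). Slc30a1, a zinc exporter, led with 112 summit fragments over 6.95 in male misaligned (86.8) and 54 over 11.6 in female control (14.2). Gpt, the alanine aminotransferase gene, had 111 and 55 fragments in the same libraries, the cell cycle gene Ccne2 had 85 and 43, and the stress kinase gene Mapk8 had 95 and 45. Ccne2 and Cyth1 were also called in all 4 ZT0 libraries, which include female misaligned. The 5 were nearest to Gm10722, Gm37352, Gm22862, Fam196b and Gm7103, and 4 of them, all but Gm37352, lay in high local background. None of the 66 or of the 37 did.

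**Figure D5:**
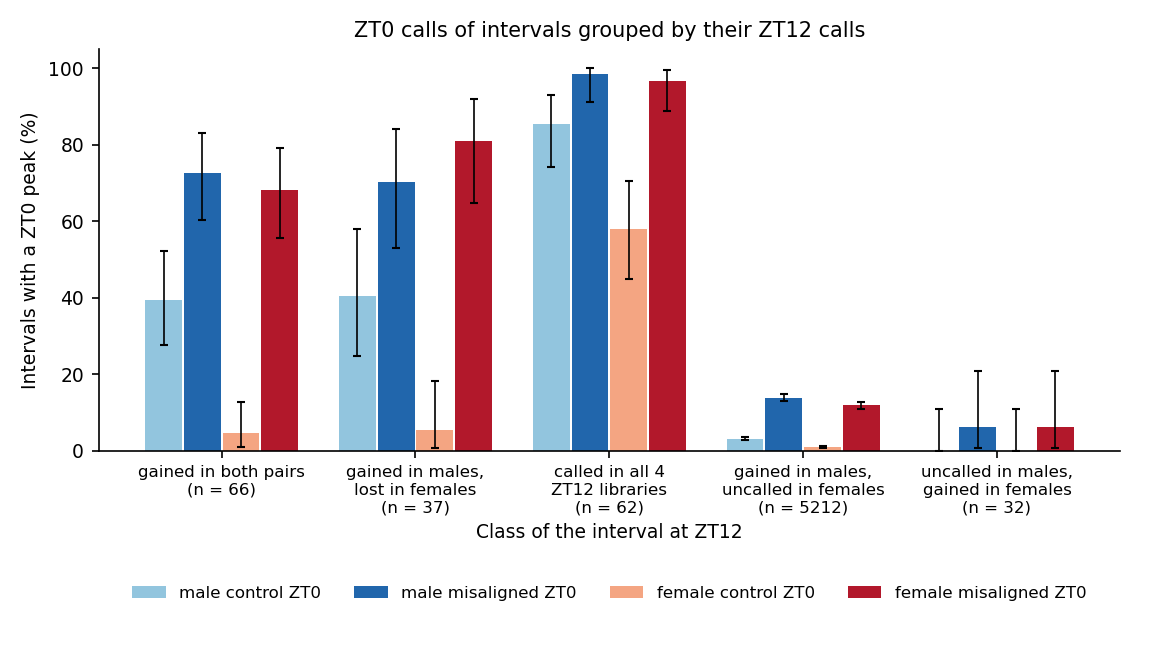
Share of intervals with a peak in each of the 4 ZT0 libraries (bars), by class at ZT12, with exact 95% intervals for counting error. For the 66 gained intervals the shares are 39.4% in male control, 72.7% in male misaligned, 4.55% in female control and 68.2% in female misaligned, close to those of the 37 intervals gained in males and lost in females.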

How the data were processed

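BMAL1 was mapped by chromatin immunoprecipitation and sequencing. Per the submitters' processing notes, the authors used BWA 0.7.17-r1188, MACS2 2.2.7.1 and GRCm38; the q threshold and whether IgG served as control are not given in the sources used here. For each peak, the authors' deposited lists give a score, the summit's fold enrichment over local background as a ratio, −log10 p and −log10 q. Calls per library came from the deposited consensus table and were checked against all 9986 peaks.

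Summit fragments and local background were recovered from fold and −log10 p (relative tolerance 0.0001), for 99.1% to 100% of the peaks of each ZT12 list, by a script tested on simulated data. Shares carry exact 95% intervals (Clopper-Pearson) for counting error alone, since sites are not replicates. Promoter windows and sequences are RefSeq's on GRCm38.p6, matched by coordinates; no genome sequence was used. The members and gene lists were chosen with earlier results of these data known. Named were all intervals changed in opposite directions, the 20 gained in both with the highest lower −log10 q, gained members of the 8 lists (138 genes), and the kept core clock and clock output genes; others were chosen after their values were seen. Of the kept intervals, the 10 best by mean rank are not described here. The nearest gene of 1 gained interval is not reported here. Python 3.11.15, pandas 2.3.3 and scipy 1.17.1 were used.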

Additional observations from a re-analysis of the deposited data

Results flagged for a closer look

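The pairs moved in opposite directions at 37 intervals that were gained in males and lost in females at ZT12, and at 5 that were lost in males and gained in females. These were picked out because the call changed one way in the only male pair and the other way in the only female pair, and the difference was not tested. Of the 37 intervals, 30 were called in female misaligned ZT0 (81.1%, interval 64.8 to 92) and 2 in female control ZT0 (5.41%). These libraries called 15.3% and 2.02% of all 5652 intervals, from lists of 1330 and 225 peaks. The opposite order of the 37 at ZT12 was fixed by how they were chosen, so the change of order tests nothing. Of the 5, Gm10722 had the deepest local background, with 1411 fragments in male control, and Gm37352 had 47 summit fragments over 9.12 in male control and 49 over 10.3 in female misaligned.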

How the results depend on the processing

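With lists of equal length, 16 intervals were gained in both pairs in place of 66 and 4 were lost in both in place of 0, fewer male misaligned peaks being compared by construction. When both peaks had to overlap by at least 50%, 8 were lost in both. With an overlap of at least 1 bp the count was 0. At each of the 8, a control peak thus still overlapped a misaligned peak in the male or the female pair, by less than 50%. The share at promoters was 43.9% within 1 kb, 63.6% within 5 kb and 72.7% by the authors' annotation, and at any distance 5 list members were gained in place of 3, both wider by construction. Against the first 290 male misaligned peaks, 33.3% of female gains, 50% of female losses and 74.3% of kept intervals were called there in place of 74.8%, 76.5% and 91.4%. These 9 of 45 alternative values moved. In the other settings the count gained in both was 51 to 66 and the opposite count 28 to 43. A common threshold of 5.52 on −log10 p, which gave 64, and the E-box inside the interval, which gave 27%, were among those added after seeing the data. E-box shares centred on the summit or over whole intervals were not run for want of the genome sequence. No paired analysis by replicate number was possible because each group has 1 library, which leaves no residual spread for a block; the pairs compared here are matched by sex alone, and leaving out a library leaves the pair of the other sex. A peak not called at unknown depth is not shown to be absent.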

Other observations

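Intervals gained in females and called in neither male library at ZT12 numbered 32. Their −log10 q in female misaligned was 1.31 to 10.3 (median 3.38), 14 were under 3, and 0 stood above the middle rank of the list. At ZT0, 29 of the 32 were called in no library (90.6%, interval 75 to 98), beside 74.9% of all 5652 intervals and 11 of the 66 gained in both pairs (16.7%).

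The 44 intervals kept in males and gained in females had a median of 47.5 summit fragments in male control, 93.5 in male misaligned and 57 in female misaligned. The male and female misaligned summits were within 100 bp of each other in 42 of these 44 (95.5%, interval 84.5 to 99.4). Kdm6b, a histone demethylase gene, was among them, with 64, 129 and 81 fragments, and Hmgn2, a nucleosome-binding protein gene, had 49, 186 and 78.

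Over all 7043 intervals, 302 were gained in both ZT0 pairs and 2 were lost in both.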
